A study of Mus musculus with 2 samples.

Results

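Cholangiocytes, the epithelial cells that line the bile ducts, were chosen by their UMI counts from the single-cell RNA-seq data of 2 mouse liver libraries. A barcode was retained if it held at least 1000 UMIs (unique molecular identifiers, each standing for 1 captured RNA molecule), at least 400 genes and no more than 30% mitochondrial UMIs. It was called a cholangiocyte if it carried at least 3 UMIs summed over the 5 markers Pkhd1, Bicc1, Cftr, Epcam and Krt19, and at most 1 UMI summed over 8 genes of other liver cell types. By this rule 699 of 42372 retained barcodes were cholangiocytes, 172 of 20158 in the WT library and 527 of 22214 in the N-LKO library.

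The study deleted Nus1, which encodes the Nogo-B receptor (NgBR), in hepatocytes and asked what this did to the liver under a fat-rich diet. Male C57BL6 mice with loxP-flanked NgBR alleles were used, and the deletion was driven by Cre recombinase under the albumin promoter, which is active in hepatocytes and, in development, in the progenitors that also give rise to bile ducts. The WT library (labelled control genotype, tissue liver) and the N-LKO library (labelled NgBR KO, tissue liver plus tumor) both came from animals kept for 16 weeks on a diet that the labels call HFD in one field and WD in another. The paper gives WD, a Western-type diet rich in fat and cholesterol, for its single-cell RNA-seq. Hepatocytes and nonparenchymal cells were isolated and mixed by the investigators before loading, with tumor cells added to the N-LKO mixture alone. There was 1 library per genotype, and the number of animals in each is not given in the sources used here, so genotype, tumor, animal and library cannot be told apart. No test between genotypes was possible, and the 95% intervals given here cover counting error only. They are exact, except those of differences between shares.

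Cholangiocytes form a polarised, ciliated epithelium that modifies bile by secreting bicarbonate and fluid through transporters such as CFTR and receptors such as the secretin receptor. Their identity depends on Notch signalling and on transcription factors such as SOX9 and ONECUT1, and after liver injury they multiply and release chemokines, osteopontin and profibrotic ligands in what is called a ductular reaction. The dolichol pathway in which NgBR works, as a subunit of cis-prenyltransferase with DHDDS, supplies the lipid carrier for N-glycosylation in every cell type.

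The name was checked with 20 biliary genes that the rule did not use. Of these, 16 had at least 50 UMIs over the cholangiocytes of both libraries. Secreted osteopontin (Spp1) and clusterin (Clu), which serve here as abundant biliary transcripts, were the most highly counted. In WT, Spp1 stood at 5518 CPM, the counts scaled to a fixed total of the cholangiocytes' summed UMIs, and in N-LKO at 4132 CPM, and at least 1 Spp1 UMI was found in 93.6% and 81.6% of the cholangiocytes. In barcodes marked as endothelial cells, which should lack it, the share with a Spp1 UMI was 1.63% in WT and 11.01% in N-LKO. After each barcode was thinned to 1000 UMIs the shares were 93.0% and 77.8% in cholangiocytes and 1.1% and 8.2% in endothelial-marked barcodes, whose median depths were 1243 and 1374 UMIs against 1402.5 and 1773 in cholangiocytes. At least 3 of the other 18 biliary genes were detected in 80.8% of WT and 73.1% of N-LKO cholangiocytes. Not every biliary gene was found in fewer N-LKO cholangiocytes, since Cd24a was detected in 21.5% of WT and 27.1% of N-LKO ones. For Spp1 both libraries stood far above the endothelial-marked barcodes. Spp1 is also among the genes with which the study named its cancer cells.

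Barcodes of the 2 libraries also held RNA of other cells. The most abundant foreign RNA was that of hepatocytes. A filter chosen after the data were seen marked as mixed every cholangiocyte with 0.6% or more of its UMIs from 13 long hepatocyte genes, more than 5 UMIs of macrophage, lymphocyte, neutrophil and dendritic markers, or more than 3 UMIs of endothelial and stellate markers. Hepatocyte RNA at this level was found in 25 WT cholangiocytes (14.53%) and 147 N-LKO cholangiocytes (27.9%), immune RNA in 15 (8.72%) and 109 (20.7%), and endothelial or stellate RNA in 5 (2.91%) and 21 (3.98%). This left 129 WT and 283 N-LKO cholangiocytes, together 412, called filtered cholangiocytes here. Their share of all cholangiocyte UMIs was 70.9% in WT against 45.5% in N-LKO. The immune and the endothelial or stellate limits were absolute counts, and N-LKO cholangiocytes were deeper (median 1773 against 1402.5 UMIs). In barcodes with under 500 UMIs, lymphocyte markers stood at 276 (WT) and 771 CPM (N-LKO) and macrophage markers at 377 and 759 CPM. The hepatocyte limit rested on long genes, which as a group were higher in N-LKO. The part of these in the shares of mixed barcodes was not tested.

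The mixed barcodes differed from the filtered ones in the biliary genes as well. In N-LKO, the 147 barcodes with hepatocyte RNA stood at 1735 CPM of Spp1, 1390 CPM of Clu and 59.1 CPM of Epcam (an epithelial adhesion molecule), against 6009, 6130 and 464.1 CPM in the filtered cholangiocytes. For the growth hormone receptor gene Ghr, which was one of the 13 genes that defined the mixed class, the order was the other way round, at 2834 and 303.9 CPM. The filtered cholangiocytes of both libraries were close to each other in these genes, since those of WT stood at 6589 CPM of Spp1, 6341 CPM of Clu and 496.1 CPM of Epcam. Of all cholangiocytes, 38.4% in WT and 49.0% in N-LKO had met the rule with Pkhd1 and Bicc1 alone, without a UMI of Cftr, Epcam or Krt19.

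**Figure D1:**
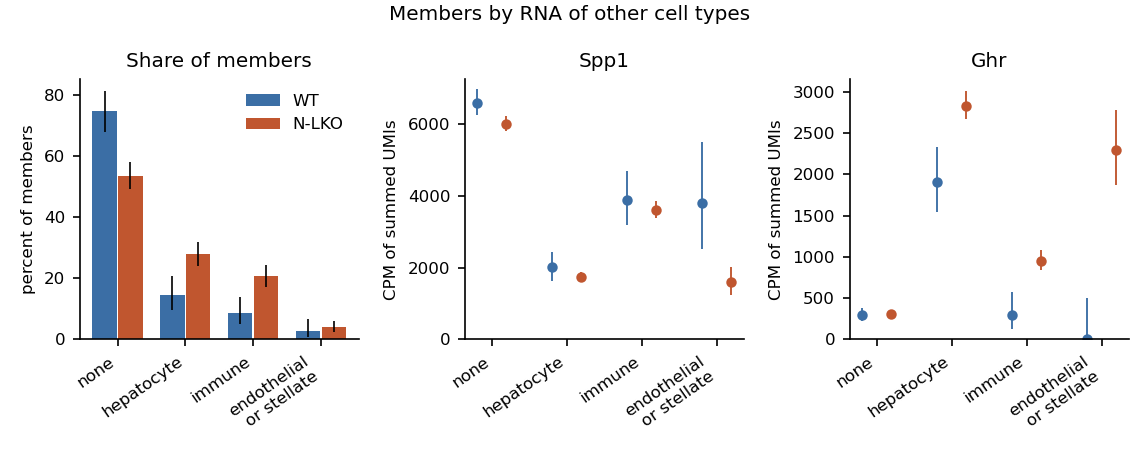
The classes of cholangiocytes by RNA of other cell types in the WT and N-LKO libraries, as the share of all cholangiocytes in each class (percent, a barcode with several kinds counted in each) and as the levels of Spp1 and Ghr (CPM of summed UMIs), all with exact 95% counting intervals. The class with none of the other RNA holds 129 WT and 283 N-LKO cholangiocytes, and Spp1 is lower and Ghr, a defining gene, higher in the class with hepatocyte RNA.

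Values just inside and just outside the rule's thresholds showed the same gradient. Barcodes with 2 marker UMIs, which were left out, numbered 72 in WT and 279 in N-LKO and stood at 719 and 840 CPM of Spp1. Those with exactly 3, which were kept, numbered 33 and 136 and stood at 3177 and 1806 CPM. Those with 4 or more numbered 139 and 391 and stood at 6114 and 4959 CPM. A further 20 WT and 108 N-LKO barcodes missed the rule by carrying 2 UMIs of the 8 excluded genes.

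RNA free in the cell suspension was estimated as a larger share. Estimated from barcodes with under 500 UMIs and scaled so that all hepatocyte marker RNA counts as free, which makes it an upper estimate, it accounted for 46.9% of cholangiocyte UMIs in WT and 45.7% in N-LKO, and for 40.1% and 42.4% in filtered cholangiocytes. The barcodes with under 500 UMIs numbered 18526 in WT and 13674 in N-LKO. They held 8165016 and 6098603 UMIs and were thus not near-empty. Whether their profile is free RNA alone, or also that of cells with little RNA, was not tested. The 20 hepatocyte markers together made up 45698 CPM of the WT cholangiocytes and 20822 CPM of the N-LKO ones, and no cholangiocyte of either library was without a UMI of them (range up to 520 and 347 UMIs per barcode). The 12 macrophage markers summed to 469 and 592 CPM and the 14 lymphocyte markers to 344 and 2107 CPM, with up to 426 lymphocyte-marker UMIs in 1 N-LKO barcode. The 12 endothelial markers stood at 201 and 240 CPM, the 13 stellate and portal fibroblast markers at 84.2 and 92.5 CPM, the 10 mesothelial markers at 231 and 102 CPM, the 11 neutrophil and dendritic markers at 425 and 1002 CPM, and the 6 erythroid markers at 36.6 and 241 CPM. At 0 in WT were 6 of the 13 stellate and portal fibroblast genes, among them Pdgfrb and Pdgfra, 4 of the 14 lymphocyte genes, among them Cd79a and Ms4a1, and 5 of the 10 mesothelial genes, among them Wt1, while N-LKO lacked 2, 0 and 5 of these lists. The part of these other cells in the ratios between libraries was not tested, except where the values for filtered cholangiocytes or with free RNA subtracted are given.

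In total counts, the libraries held 85522287 UMIs in 100171 barcodes (WT) and 87575064 UMIs in 90147 barcodes (N-LKO). Cholangiocytes contributed 273099 and 1069807 UMIs. The cholangiocytes of N-LKO were deeper (median 1773 against 1402.5 UMIs) and had more mitochondrial RNA (14.3% against 11.3% of UMIs). The nuclear transcript Malat1 made up 2.36% of UMIs in WT and 2.08% in N-LKO. Both libraries shared 139 retained barcode sequences, but no cholangiocyte barcode occurred as a cholangiocyte in both, and 6 were retained in the other library under another class.

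Cholangiocytes made up 0.853% (95% interval 0.731 to 0.990) of retained WT barcodes and 2.37% (2.18 to 2.58) of retained N-LKO barcodes, a difference of 1.52 percentage points (1.28 to 1.76). With filtered cholangiocytes alone the shares were 0.640% and 1.27%, a difference of 0.634 points (0.450 to 0.820). The mixing of hepatocytes with nonparenchymal cells, and the tumor cells added to N-LKO, set the denominators. Hepatocyte-marked barcodes numbered 2565 in WT and 528 in N-LKO, and without them in the denominator the cholangiocyte shares were 0.978% and 2.43%. Both shares describe these 2 suspensions, and nothing was measured on the number of bile duct cells in the livers.

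The 5 marker genes of the rule were the first to be described, without support for the name, because they chose the cells. Fibrocystin (Pkhd1), a protein of the primary cilium, stood at 2552 (WT) and 1726 CPM (N-LKO), with a median of 3 UMIs per cholangiocyte in each library and a highest count of 25 and 22. Its gene spans 560 kb on chromosome 1 (20057779 to 20618064, GRCm38, minus strand). The RNA-binding protein Bicc1 stood at 1326 and 1033 CPM. The chloride channel Cftr was at 103 and 122 CPM, keratin 19 (Krt19) at 80.6 and 80.4 CPM, and Epcam at 458 and 283 CPM. Epcam was thus the lowest relative to WT of the 5, at a log2 ratio (N-LKO over WT, after 0.5 UMI was added to both sums) of -0.70, but at -0.10 (-0.45 to 0.26) in filtered cholangiocytes.

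Apart from the 5 rule markers, the genes most particular to these barcodes against all other retained ones were biliary and epithelial by their known roles, which describes the choice of cells. The claudin Cldn7 stood 172 times above the level of all other retained barcodes in WT and 43.4 times in N-LKO, and the YAP target Ankrd1 141 and 47.9 times. Surfactant protein D (Sftpd) stood at 76.9 (WT) and 64.5 CPM (N-LKO), the epithelial transcription factor Grhl2 at 47.6 and 37.4 CPM, and the large potassium channel Kcnma1 at 304 and 287 CPM. Kcnip4, which encodes a protein that binds potassium channels, was high among them at 1135 CPM (310 UMIs in 91 cholangiocytes) and 1500 CPM (1605 UMIs in 328), against 12.8 and 39.9 CPM in all other retained barcodes. Its log2 ratio was 0.40 (0.23 to 0.58), and 0.83 (0.63 to 1.04) in filtered cholangiocytes. The cadherin Cdh6 was at 114 and 168 CPM, with a log2 ratio of 0.55 (0.01 to 1.17) and 1.00 (0.42 to 1.67) in filtered cholangiocytes.

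**Figure D2:**
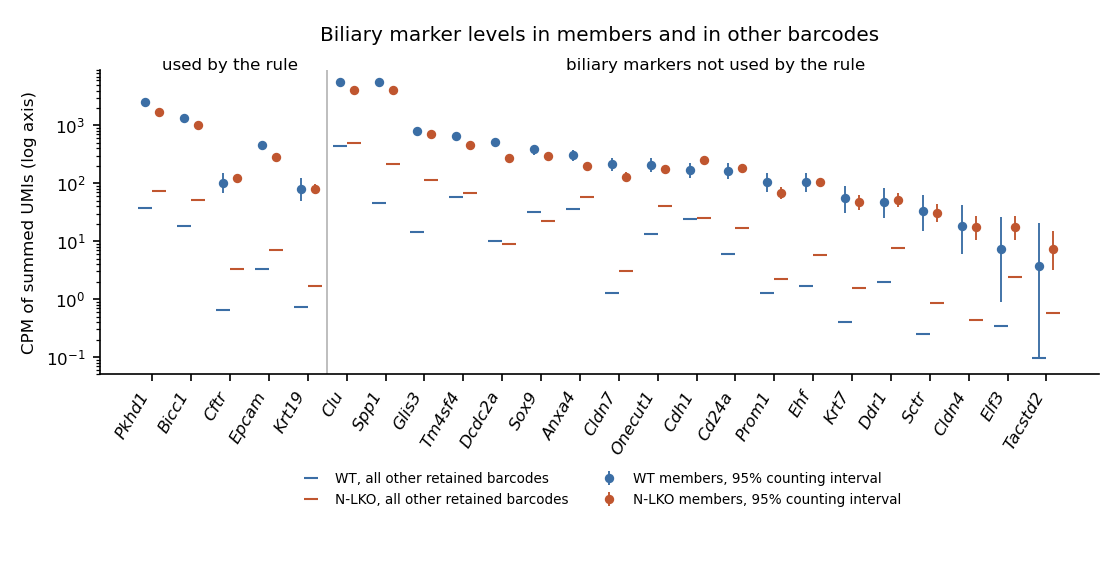
Levels (CPM of summed UMIs, log axis) of the 5 markers of the rule and of biliary genes outside it, with points for WT and N-LKO cholangiocytes, bars for exact 95% counting intervals and dashes for all other retained barcodes of each library. Outside the rule Clu and Spp1 are highest in both libraries, and each cholangiocyte point lies above the dash of its library.

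Biliary genes outside the rule were, on balance, slightly lower in N-LKO. Of the 16 genes with at least 50 UMIs, 13 were lower and 3 higher, and none was past 2-fold with a counting interval without 0, which is the limit used here for a difference in size. The median log2 ratio was -0.37, against 0.15 for all 4817 genes with 50 or more UMIs in at least 10 cholangiocytes. In filtered cholangiocytes the median was -0.06 against 0.05 for all genes, so most of the shift was absent there. Sox9, a transcription factor of ductal identity, stood at 384 (WT) and 294 CPM (N-LKO), with a log2 ratio of -0.39 (-0.71 to -0.05) in all and 0.23 (-0.15 to 0.64) in filtered cholangiocytes. Clu behaved likewise, at -0.45 (-0.53 to -0.36) and -0.05 (-0.15 to 0.05). Dcdc2a, which encodes a ciliary protein, was lowest at 516 and 271 CPM, with ratios of -0.93 (-1.22 to -0.63) and -0.44 (-0.77 to -0.10). The sialoglycoprotein gene Cd24a, in contrast, was at 0.14 (-0.32 to 0.65) and 0.94 (0.40 to 1.57). The study named its cancer cells by high Krt8, Krt18, Spp1 and Epcam. Epcam was a marker of the rule and Spp1 a gene of the name check. These genes therefore do not separate cholangiocytes from such cells. The part of tumor cells in the N-LKO cholangiocytes was not tested. Both keratins were detected in cholangiocytes of both libraries, with Krt8 at 644 and 725 CPM (0.17, -0.07 to 0.42) and Krt18 at 476 and 426 CPM. In filtered cholangiocytes Krt8 was at 0.44 (0.17 to 0.72).

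Over all 4817 genes, 608 (12.6%) were more than 2-fold higher in N-LKO cholangiocytes and 322 (6.68%) more than 2-fold lower. In the filtered cholangiocytes, where 2529 genes had 50 UMIs, 159 (6.29%) were higher and 167 (6.6%) lower, so the excess of higher genes was not seen. With free RNA subtracted as well, 201 were higher and 131 lower there, and the higher genes were again in excess. Of the 608 genes, 227 could be measured in filtered cholangiocytes and 113 were past the limit there in the same direction. Of the 322 lower genes, 226 could be measured and 138 were past it. Because the N-LKO cholangiocytes held more UMIs, a gene absent from WT reached the minimum of 50 UMIs more easily than one absent from N-LKO.

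The higher and lower genes differed in free RNA, in their ratios in other cell types and in gene span. Free RNA accounted for 50% or more of the UMIs of 214 of the 322 lower genes (66.5%), but of 31 of the 608 higher genes. Past 2-fold in the same direction in hepatocyte-marked, endothelial-marked or Kupffer-marked barcodes were 203 of the lower genes (63.0%) and 226 of the higher ones (37.2%). Among all 7971 genes measured in hepatocyte-marked barcodes, 557 were past the limit higher and 215 lower. In endothelial-marked ones these were 797 and 609 of 10623, and in Kupffer-marked ones 416 and 488 of 10102. The share of all 4817 genes past it in any class, or with 50% or more free RNA, was not counted. The median gene span was 9.10 kb for the lower genes and 103 kb for the higher ones. When all genes were divided into 5 equal bins by span, the median log2 ratio went from -0.55 in the shortest (median 5.55 kb) to 0.58 in the longest (203 kb). The same order held in filtered cholangiocytes (-0.43 to 0.36), in hepatocyte-marked (-0.08 to 0.59), endothelial-marked (-0.24 to 0.37) and Kupffer-marked barcodes (-0.20 to 0.27).

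**Figure D3:**
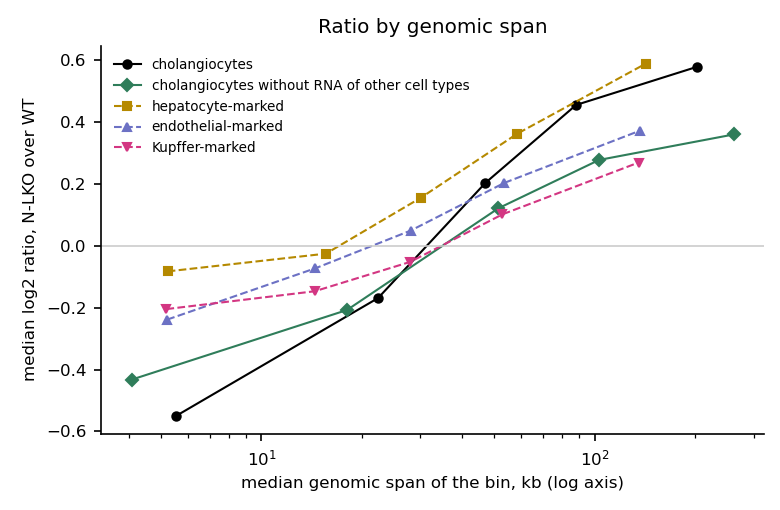
Median log2 ratio (N-LKO over WT) of the genes in 5 equal bins of genomic span, against the median span of the bin (kb, log axis), for all cholangiocytes, those without RNA of other cell types, and hepatocyte-marked, endothelial-marked and Kupffer-marked barcodes. The ratio increases with span in all 5 sets, from -0.55 to 0.58 in cholangiocytes.

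The 12 highest and 12 lowest genes held few of a biliary kind. Among the highest, immunoglobulin genes came from a few barcodes: Igkc had 12 UMIs in WT and 1481 in N-LKO, of which 345 lay in 1 barcode and 92.9% in 10. Jchain, which joins immunoglobulin monomers, had 0 UMIs in WT and 360 UMIs in 28 N-LKO barcodes, at least 30.6-fold higher against a floor of 3 UMIs. In filtered cholangiocytes Igkc was at a log2 ratio of 0.91 (-0.04 to 2.11) and Jchain held 4 UMIs. S100a8, a neutrophil gene, had 1 and 97 UMIs, and the beta-globin gene Hbb-bs 2 and 148 UMIs in 2 and 14 barcodes. Rgs7, Esrrg, Rps6kc1 and Slc24a3 had 0 UMIs in WT and 88, 78, 56 and 54 in N-LKO, and Ly6d and Fyb2 1 UMI in WT and 87 and 81 in N-LKO.

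Of the 12 lowest, 10 are genes known for their expression in hepatocytes, namely Mup17, Sult2a8, Mup11, Oat, Thrsp, Car3, Fabp1, Leap2, Fasn and Gchfr. Fabp1, a fatty acid binding protein, stood at 7686 (WT) and 1179 CPM (N-LKO), while the free RNA alone would give 9234 and 1486 CPM. Its log2 ratio was -2.70 in cholangiocytes, -2.36 in endothelial-marked and -2.35 in Kupffer-marked barcodes. The remaining 2, Tff2 and Msmp, had most of their WT UMIs in 1 barcode. Tff2, a trefoil peptide of mucous epithelia, had 81 UMIs in WT, of which 79 were in 1 barcode, and 32 UMIs in 24 N-LKO barcodes. Msmp, a microseminoprotein, had 73 UMIs in 12 WT barcodes, with 44 in 1 of them, and 45 in 14 N-LKO barcodes, with 24 in 1.

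To describe genes with little free RNA that stood high in cholangiocytes, a rule set after the values were seen kept those that were past the limit in all and in filtered cholangiocytes, had under 20% of their UMIs from free RNA and stood at least 5 times above the other retained barcodes in the library where they were higher. It left 10 higher and 9 lower genes, and 2 of the 10 were also past the limit in the same direction in another class of barcodes. Of the higher ones, matrilysin (Mmp7), a protease of ductal epithelium, stood at 22.0 CPM in WT (6 UMIs in 6 cholangiocytes, no barcode above 1) and 97.2 CPM in N-LKO (104 UMIs in 82, at most 5). Its log2 ratio was 2.04 (0.97 to 3.62) and 2.81 (1.56 to 4.88) in filtered cholangiocytes. Rgs5, a regulator of G-protein signalling, was at 65.9 and 274 CPM (18 UMIs in 13 and 293 UMIs in 156 cholangiocytes), a ratio of 2.02, and 2.54 in filtered cholangiocytes. In all other retained barcodes Rgs5 stood at 56.4 (WT) and 38.5 CPM (N-LKO), so its WT level was not particular to cholangiocytes. Tgfb2, a TGF-beta ligand, was at 36.6 and 111 CPM and detected in 5.8% and 16.5% of cholangiocytes, with a ratio of 1.54 (0.67 to 2.70), and 2.24 (1.16 to 3.84) when filtered. The activin subunit Inhba was at 29.3 and 70.1 CPM (8 and 75 UMIs), a ratio of 1.18 (0.21 to 2.52), and 1.87 (0.67 to 3.67) when filtered. In WT, Inhba was at 32.3 CPM in hepatocyte-marked barcodes, so its WT level was not particular to cholangiocytes. These 4 genes were detected in more of the N-LKO than of the WT cholangiocytes, and their N-LKO UMIs were spread over 58 or more barcodes.

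The other 6 higher genes were A830018L16Rik (1 UMI in WT and 94 in N-LKO), the protocadherin Pcdh11x (14.6 and 77.6 CPM), Csmd1 (32.96 and 137 CPM), the calcium channel subunit Cacna2d1 (69.6 and 170 CPM), the ESCRT component Chmp4c (32.96 and 85.1 CPM) and the axon guidance ligand Slit2 (40.3 and 90.7 CPM). Pcdh11x was also past the limit in hepatocyte-marked barcodes (1.38) and Cacna2d1 in endothelial-marked ones (3.78). In WT, Csmd1 stood higher in endothelial-marked barcodes (60.3 CPM) than in cholangiocytes. Slit2 was seen in 7 WT and 66 N-LKO cholangiocytes, Cacna2d1 in 14 and 114, and Csmd1 in 6 and 68.

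On the lower side, Erbb4, a receptor of neuregulins, carried the most UMIs: 538 in 152 WT cholangiocytes (1970 CPM, median 2, at most 19) and 875 in 335 N-LKO cholangiocytes (818 CPM, median 1, at most 16). The log2 ratio was -1.27 (-1.42 to -1.11), and -1.002 (-1.19 to -0.82) in filtered cholangiocytes. In hepatocyte-marked barcodes Erbb4 stood at 386 and 210 CPM, a ratio of -0.88. Erbb4 is a long gene, so its direction was opposite to the order by span described above. Its ligand Nrg1 was at 43.9 and 171 CPM, with a ratio of 1.91 (1.12 to 2.94), and of 1.91 in hepatocyte-marked barcodes as well. The inhibitor of differentiation Id1, a target of BMP signalling, stood at 165 and 48.6 CPM (45 UMIs in 31 and 52 in 48 cholangiocytes), a ratio of -1.76, and -1.37 in filtered cholangiocytes. The keratin Krt23 was at 157 and 57.0 CPM, Ddit4l, an inhibitor of mTOR, at 293 and 105 CPM, Cystm1 at 154 and 72.9 CPM, Nudt19 at 231 and 58.0 CPM, and Wdr17 at 128 and 37.4 CPM. Tff2 and Msmp, already described, complete the 9.

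**Figure D4:**
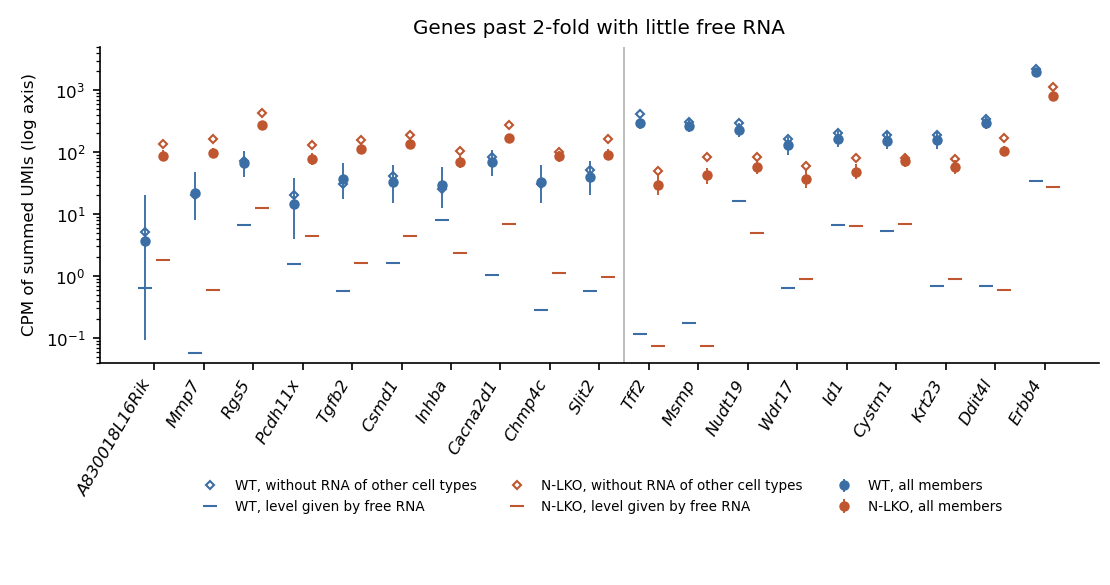
Levels (CPM of summed UMIs, log axis) of the 19 genes past 2-fold in all and in filtered cholangiocytes with little free RNA, the 10 higher ones left of the line and the 9 lower ones right of it, with filled points and exact 95% counting intervals for all cholangiocytes, open points for filtered ones and dashes for the level that free RNA would give. Filtered and unfiltered points of a gene lie on the same side of the other library, as the rule that kept these genes required. The free RNA level lies below them, and the rule had kept only genes with little free RNA.

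Gene groups of ductal function came next, each given by its counts and median beside the background of 12.6% higher and 6.68% lower. The filtered median of a list covers only the genes with 50 UMIs in filtered cholangiocytes, often fewer. Ciliary and polycystin genes sense bile flow and are mutated in cystic liver disease. Of 29, 6 had 50 UMIs and none was past the limit (median 0.10, and -0.20 over 4 genes in filtered cholangiocytes). Pkd2, polycystin 2, stood at 98.9 and 91.6 CPM. Of 27 genes of bile secretion and transport, 12 were measured, 4 were higher and 1 lower, with a median of -0.16, and 0.00 when filtered. The 4 were the sodium bicarbonate cotransporter Slc4a4 (209 and 452 CPM, ratio 1.11), the bile acid transporter Slc10a2 (14.6 and 64.5 CPM, 1.98), the exporter Abcc4 (25.6 and 71.04 CPM, 1.38) and the potassium channel Kcnq1 (25.6 and 57.0 CPM, 1.07). Glucose transporter Slc5a1 was the lower one at 132 and 46.7 CPM (-1.501, -2.14 to -0.84), and -0.995 when filtered. In filtered cholangiocytes 5 genes of the list were measured and none was past the limit. The secretin receptor Sctr had 9 UMIs in WT and 33 in N-LKO and was not measured.

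Of 30 genes of junctions and polarity, 20 were measured, 1 was higher and 1 lower (median 0.13, and 0.12 when filtered). E-cadherin (Cdh1) stood at 168 and 249 CPM (0.55, 0.11 to 1.05), and the junctional adhesion molecule F11r at 168 and 291 CPM (0.77, 0.34 to 1.27). The desmocollin Dsc2 was the higher gene, with 2 UMIs in WT and 53 in N-LKO (ratio 2.45, 0.83 to 5.84), and Llgl2, a polarity protein, the lower one at 62.3 and 30.9 CPM (-1.03). The junctional genes as a list were near the median of all genes.

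In the Notch pathway 10 of 22 genes were measured and 1 was higher, with a median of 0.22, and 0.45 when filtered. The Notch antagonist Numb stood at 62.3 and 154 CPM (ratio 1.27, 0.59 to 2.12; filtered 1.68, 0.64 to 3.14). The ligand Jag1 was at 73.2 and 87.9 CPM, the receptor Notch2 at 128 and 116 CPM, and the target Hes1 at 341 and 255 CPM (-0.42, -0.76 to -0.06; filtered -0.09, -0.47 to 0.33). In the Hippo pathway, which restrains the coactivator YAP, 13 of 20 were measured and 2 were higher, with a median of 0.33, and 0.47 when filtered. Yap1 itself had 7 UMIs in WT and 104 in N-LKO (25.6 and 97.2 CPM, ratio 1.83, 0.83 to 3.27; filtered 1.74, 0.62 to 3.35). Nf2, an upstream member, had 2 and 48 UMIs (2.31, 0.68 to 5.70). The YAP targets were not past the limit: Ankrd1 stood at 469 and 413 CPM (-0.19, -0.47 to 0.11; filtered 0.33), Ccn1 at 201 and 174 CPM and Ccn2 at 54.9 and 72.9 CPM.

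**Figure D5:**
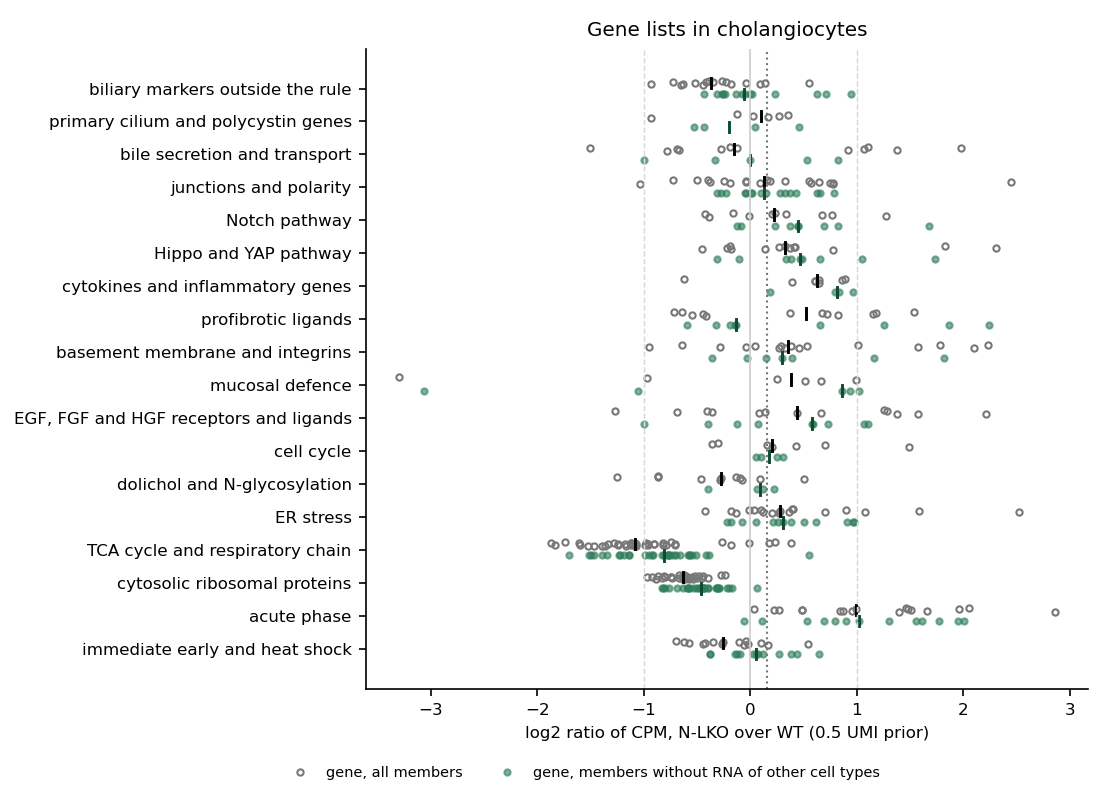
Log2 ratio (N-LKO over WT, with 0.5 UMI added) of each measured gene of 18 lists, with open points for all and filled points for filtered cholangiocytes, short bars for the medians of the list, dashed lines at 2-fold and a dotted line at the median of all genes (0.15). The respiratory chain (median -1.09) and ribosomal genes (-0.63) lie left of the dotted line and the acute phase genes (0.99) right of it.

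Of 26 chemokines, cytokines and inflammatory genes, 8 were measured and none was past the limit, with a median of 0.63, and 0.82 over 4 genes when filtered. The chemokine Ccl2 was at 32.96 and 62.6 CPM (0.86, -0.08 to 2.12), Cxcl1 at 29.3 and 57.0 CPM (0.89, -0.11 to 2.24), and the adhesion molecule Vcam1 at 69.6 and 108 CPM (0.61, -0.07 to 1.42). With 8 to 30 WT UMIs each, none of these 8 had an interval without 0 in all cholangiocytes. In filtered cholangiocytes all 4 measured genes of the list were higher, 2 with an interval above 0 and none past the limit. Among 24 profibrotic ligands and integrins, 12 were measured and 3 were higher, with a median of 0.52, and -0.13 when filtered. Beside Tgfb2 and Inhba, the third was the integrin Itgav, which can activate latent TGF-beta, at 103 and 232 CPM (1.15, 0.61 to 1.80; filtered 1.26, 0.63 to 2.01). The platelet-derived growth factors were on the other side, with Pdgfd at 956 and 580 CPM (-0.72, -0.93 to -0.51; filtered -0.32) and Pdgfc at 337 and 217 CPM (-0.64, -0.99 to -0.27).

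Basement membrane genes and integrins numbered 30, of which 16 were measured and 5 were higher (median 0.35, and 0.29 when filtered). They were the type IV collagen chains Col4a1 (47.6 and 99.1 CPM, ratio 1.01), Col4a2 (14.6 and 56.1 CPM, 1.78) and Col4a3 (3 and 64 UMIs, 2.23, 0.83 to 4.76), the integrin Itga2 (14.6 and 48.6 CPM, 1.57) and dystonin (Dst, 58.6 and 258 CPM, 2.10). Another chain, Col4a5, was at 201 and 130 CPM (-0.64, -1.09 to -0.15). For mucosal defence genes 6 of 20 were measured and 1 was lower (median 0.39, and 0.86 when filtered). This was Tff2, which rested on 1 WT barcode. In filtered cholangiocytes 1 gene of the list was higher and 2 were lower past the limit. The polymeric immunoglobulin receptor Pigr, which carries IgA into bile, stood at 696 and 356 CPM (-0.97, -1.22 to -0.71; filtered -1.05, -1.38 to -0.72).

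Receptors and ligands of the EGF, FGF and HGF families held 13 measured genes of 23, with 5 higher and 1 lower (median 0.44, and 0.58 when filtered). The EGF receptor Egfr stood at 249 and 598 CPM (1.26, 0.90 to 1.65; filtered 0.73, 0.19 to 1.34). The HGF receptor Met was at 69.6 and 173 CPM (1.28, 0.63 to 2.08; filtered 1.11, 0.31 to 2.08). The neuropilins Nrp1 and Nrp2 (1.38 and 2.21) and the kinase Braf (1.58) were the other 3 higher genes, and Erbb4 was the lower one. Of 25 cell cycle genes, 7 were measured and 1 was higher, with a median of 0.21. The inhibitor Cdkn1a had 6 UMIs in WT and 71 in N-LKO (1.49, 0.40 to 3.09), and cyclin D1 (Ccnd1) stood at 256 and 209 CPM. The proliferation genes Mki67 (5 and 17 UMIs) and Top2a (9 and 23 UMIs) did not reach 50 UMIs.

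The deleted gene and its pathway were read in cholangiocytes as cells that carry the same alleles, although the floxed exon is the first of the gene and 3′ tags are read from its other end, so that the Nus1 level is no check of the deletion. Nus1 (chromosome 10, 52417547 to 52440183, GRCm38) had 17 UMIs in 17 WT cholangiocytes and 37 UMIs in 36 N-LKO cholangiocytes. This was 62.3 and 34.6 CPM, a log2 ratio of -0.87 (-1.71 to 0.07), so a difference was not resolved at this depth. In hepatocyte-marked barcodes, where the deletion acts, Nus1 stood at 73.2 and 38.1 CPM (-0.93, -1.44 to -0.48). Its partner Dhdds had 6 and 24 UMIs in cholangiocytes (-0.06, -1.30 to 1.61). Of 32 genes of dolichol synthesis and N-glycosylation, 11 were measured, 9 lower and 2 higher, and 1 was past the limit. The median was -0.27, and 0.09 over the 4 genes measured when filtered. The gene past the limit was Dpm3, of dolichol-phosphate mannose synthase, at 117 and 49.5 CPM (-1.25, -1.90 to -0.56). With free RNA subtracted the list's median was -0.51, with 1 gene higher and 10 lower. When filtered and subtracted it was -0.03 over 4 genes.

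For the unfolded protein response 18 of 25 genes were measured and 3 were higher, with a median of 0.27, and 0.31 when filtered. The 3 were sensor genes: Ern1 (22.0 and 136 CPM, 2.52), Atf6 (58.6 and 180 CPM, 1.58) and Eif2ak3 (32.96 and 72.9 CPM, 1.08). In filtered cholangiocytes their intervals reached below 0. With free RNA subtracted the list's median was 0.06, with 10 genes higher and 8 lower. When filtered and subtracted it was 0.07 over 13 genes, against 0.10 for all genes there. The chaperone Hspa5 was at 425 and 558 CPM (0.39, 0.10 to 0.69; filtered 0.62, 0.26 to 1.00) and the disulfide isomerase Pdia3 at 150 and 283 CPM (0.90, 0.44 to 1.42; filtered 0.96).

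Nuclear genes for the TCA cycle and the respiratory chain were lower as a list, of which 43 of 46 were measured, 25 were lower and none higher past the limit, with a median of -1.09, and -0.81 when filtered. With free RNA subtracted the median was -0.63, and -0.35 when filtered and subtracted. Uqcrq, of complex III, stood at 912 and 256 CPM (-1.83, -2.08 to -1.58), Cox6c at 978 and 322 CPM (-1.60) and Ndufa4 at 1040 and 488 CPM (-1.09). The same list had a median of -1.10 in endothelial-marked, -0.77 in Kupffer-marked and -0.14 in hepatocyte-marked barcodes. All 31 cytosolic ribosomal protein genes were lower, none past the limit, with a median of -0.63, and -0.46 when filtered. Both lists hold short genes.

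In the other direction, all 17 measured of 20 acute phase genes were higher and 8 were past the limit, with a median of 0.99, and 1.02 when filtered. Haptoglobin (Hp) stood at 319 and 911 CPM (1.51, 1.20 to 1.85) and serum amyloid Saa1 at 29.3 and 129 CPM (2.06, 1.12 to 3.38). These are secreted mainly by hepatocytes, and with free RNA subtracted the list's median was -0.34 over the 14 genes that kept a value. In filtered cholangiocytes with free RNA subtracted it was 0.60 over 10 genes, so the direction of the list depended on the set of barcodes. Lipocalin 2 (Lcn2), an iron-binding defence protein that duct cells also make, had 55 UMIs in 31 WT and 432 UMIs in 208 N-LKO cholangiocytes (201 and 404 CPM, 0.99, 0.60 to 1.44; filtered 1.02, 0.60 to 1.497). Thinned to 1000 UMIs, 14.53% of WT and 27.5% of N-LKO cholangiocytes held a Lcn2 UMI, against 0.8% and 8.7% of endothelial-marked barcodes. Free RNA would give 3.73 and 89.1 CPM of Lcn2. Of 20 stress genes of the immediate early and heat shock kinds, 15 were measured and none was past the limit, with a median of -0.26, and 0.05 when filtered.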

How the data were processed

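Single-cell suspensions of WT and N-LKO mouse liver, 1 library each, were profiled with 10x 3′ chemistry. The authors deposited a matrix of raw UMI counts per gene and barcode for each library, made with Cell Ranger 7.1.0 per the file headers, with 32285 genes in each. The submitters' processing notes also name mm9 and Seurat. The gene identifiers were found in a GRCm38 annotation, which gave gene spans, and the counting of intronic reads is not given in the sources used here. No deposited column of per-sample values was left without a sample (0 unmatched).

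Counts were read with pandas 2.3.3 and scanpy 1.11.5 and analysed with scipy 1.17.1 under Python 3.11.15. Barcodes with at least 1000 UMIs, at least 400 genes and at most 30% mitochondrial UMIs were retained. Cholangiocytes were chosen as the report states, and hepatocyte-marked, endothelial-marked and Kupffer-marked barcodes by like rules. Counts were summed per library and given as CPM, with exact Poisson intervals. Log2 ratios had 0.5 UMI added to each sum and an exact conditional binomial interval. Shares have Clopper-Pearson intervals and their difference a Newcombe interval. A gene was measured at 50 or more UMIs in at least 10 cholangiocytes, and past the limit at a 2-fold ratio with a 95% interval without 0. With 1 library per genotype there were no p-values. Doublets were scored with Scrublet and left in: 15 of 172 WT and 57 of 527 N-LKO cholangiocytes scored over 0.25. The scripts were tested on simulated data.

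Genes named were the 5 markers, Nus1, Dhdds and the 4 cancer cell genes of the study, up to 4 genes per list with the largest ratios among those whose interval left out 0 (otherwise those with the most UMIs), the 12 highest and 12 lowest, and the 20 most particular to cholangiocytes. Other genes were named after their values were seen, and 1 gene of the biliary list is counted but not reported here by name. Members and lists were chosen with earlier results of these data known, and the filter against RNA of other cells and the rule for the 19 genes with little free RNA after these data were seen.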

Additional observations from a re-analysis of the deposited data

Results flagged for a closer look

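For 3 of the 19 genes past 2-fold with little free RNA, the ratio between N-LKO and WT went one way in cholangiocytes and the other way in another class of barcodes, past 2-fold with a counting interval without 0 in both. Inhba was higher in N-LKO cholangiocytes (log2 ratio 1.18) and lower in endothelial-marked (-1.10) and Kupffer-marked barcodes (-1.81). Its WT and N-LKO levels were 11.57 and 5.37 CPM in endothelial-marked and 12.7 and 3.59 CPM in Kupffer-marked barcodes. In the barcodes with under 500 UMIs that gave the free RNA, Inhba stood at 17.15 and 5.08 CPM. Id1 was lower in cholangiocytes (-1.76) and higher in hepatocyte-marked barcodes (1.04). Cystm1 was lower in cholangiocytes (-1.08) and higher in hepatocyte-marked barcodes (1.47). In hepatocyte-marked barcodes Id1 stood at 9.85 (WT) and 19.96 CPM (N-LKO), and Cystm1 at 7.28 and 19.96 CPM. The free RNA held 13.96 and 14.27 CPM of Id1, and 11.51 and 15.25 CPM of Cystm1. The part of free RNA in these opposite ratios was not tested. With 1 library per genotype, the difference between the classes was not tested.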

How the results depend on the processing

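There was 1 library per genotype, with no library to leave out in turn and no test between genotypes. No paired analysis was possible because each group has 1 library. Depth limits low genes: most lists were measured in part, and WT ratios often rest on under 20 UMIs. Of 323 values of shares, counts and list medians under the alternatives, 252 stayed within their spread and 71 left it. Of the 323, 51 changed sign, all of them medians, and 35 of these stayed within their spread. Of 1517 gene ratios, 1239 kept their call or, without a call, stayed within their counting interval. Of the others, 68 lost the call, 62 gained it, 138 without a call moved and 10 with a call changed sign. Changes of sign within the interval of a gene without a call were not counted. Where values moved, the cause was not tested.

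The share difference stayed above 0. It was 0.799 points with at least 5 marker UMIs, 0.820 with no UMI of an excluded gene, 1.93 with a mitochondrial limit of 10%, 1.16 from 500 UMIs, 1.03 after thinning to 1000 UMIs, 0.360 with Cftr, Epcam and Krt19 alone and 0.634 in filtered cholangiocytes.

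Counts of genes past 2-fold higher were 275 with 5 marker UMIs, 375 with no excluded UMI, 388 at the 10% mitochondrial limit, 141 after thinning, 71 with the 3 markers, 374 at lower Malat1, 87 at a lower hepatocyte share, 159 in filtered cholangiocytes and 201 there with free RNA subtracted. Lower genes were 204 with 5 marker UMIs, 166 at the 10% limit, 145 after thinning, 58 with the 3 markers, 211 at lower Malat1, 505 at a minimum of 20 UMIs, 167 filtered and 131 filtered with free RNA subtracted. Higher genes were 65.4% of all past the limit, but 48.8% in filtered cholangiocytes, 49.3% after thinning, 55.0% with the 3 markers, 73.0% with free RNA subtracted, 60.5% filtered with free RNA subtracted and 27.2% at the lower hepatocyte share, which left 4 WT and 346 N-LKO cholangiocytes and so compares few cells.

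The median over all genes was 0.020 with the 3 markers, 0.10 with 5 marker UMIs, 0.11 at a minimum of 20 UMIs, -0.087 at the lower hepatocyte share, 0.047 filtered, 0.10 filtered with free RNA subtracted, 0.25 at the 10% limit and 0.055 after thinning.

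Respiratory chain medians were -0.72 with the 3 markers, -0.95 with 5 marker UMIs, -0.63 with free RNA subtracted, -1.43 at the lower hepatocyte share, -0.81 filtered, -0.35 filtered and subtracted, -1.36 at the 10% limit, -0.91 with no excluded UMI and -0.95 after thinning. Ribosomal medians were, in the same order, -0.48, -0.51, -0.53, -1.33, -0.46, -0.26, -0.83, -0.50 and -0.42.

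With the 3 markers, medians were -0.066 for ER stress, -0.079 for basement membrane, -0.036 for biliary genes, 1.11 for cytokines and 0.10 for dolichol genes. With the lower hepatocyte share they were -0.078 for ER stress, -0.35 for Hippo, 1.67 for acute phase, -0.40 for basement membrane, 1.46 for bile secretion and -0.91 for cell cycle. At the 10% limit they were -0.22 for Hippo, -0.48 for immediate early, -1.42 for cilium and -1.03 for profibrotic genes. Acute phase stood at -0.34 with free RNA subtracted (14 genes) and at 0.60 filtered and subtracted (10 genes), and immediate early genes at 0.052 filtered and 0.068 filtered and subtracted. Cytokines stood at 1.14 at lower Malat1 and 1.06 with no excluded UMI, and dolichol genes at 0.19 after thinning.

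Among single genes with a call, the sign changed at the lower hepatocyte share for Yap1 (-0.52), Inhba (-0.22), Col4a2 (-0.49), Met (-0.43), Cdkn1a (-0.35) and Pcdh11x (-0.041). The sign changed with free RNA subtracted for Mt2 (-5.32) and Fasn (0.72). For Igkc it changed with the 3 markers (-0.97) and filtered with free RNA subtracted (-4.58). Leaving out the lower hepatocyte share, Mmp7 ranged from 1.82 to 2.84 (13 alternatives), Rgs5 from 1.76 to 2.70 (14) and Tgfb2 from 1.38 to 2.42 (12). Likewise, Id1 ranged from -2.01 to -1.37 (11) and Erbb4 from -1.53 to -0.98 (14). Chmp4c (lowest 0.97), Slit2 (lowest 0.93), Cystm1 (nearest to 0 -0.77), Ddit4l (-0.83) and Erbb4 thus came within 2-fold under some alternative. Alternatives in which a gene had no value were not counted, so some ranges leave alternatives out. The ranges were also in part fixed in advance. The rule that kept these genes required a 2-fold ratio in filtered cholangiocytes, which are among the alternatives.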

Other observations

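A single WT cholangiocyte held most trefoil factor RNA of the WT library. Tff1, which encodes a gastric trefoil peptide, had 126 UMIs in WT cholangiocytes, all in 1 barcode, of 129 over all retained WT barcodes, and 1 UMI in N-LKO cholangiocytes. The same WT barcode held 79 of the 81 Tff2 UMIs of the WT cholangiocytes, of 86 over all retained WT barcodes. In N-LKO, Tff2 was instead found at low counts in 24 cholangiocytes, none with more than 5 UMIs.

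Several of the highest genes of the filtered cholangiocytes were high in the other classes of the N-LKO library as well. Fkbp5, a target of the glucocorticoid receptor, stood at 10.98 CPM in the WT and 148 CPM in the N-LKO cholangiocytes, with log2 ratios of 3.53 there, 2.43 in filtered cholangiocytes, 3.01 in hepatocyte-marked, 1.94 in endothelial-marked and 2.48 in Kupffer-marked barcodes. The transcription factor Zbtb16 (40.3 and 363 CPM) had 3.11, 2.68, 2.72, 3.14 and 2.67 in the same order. The DNA repair gene Rad51b (40.3 and 438 CPM) had 3.38, 2.68, 3.39, 2.18 and 1.64. The metallothionein gene Mt1, of the acute phase list and not among the highest when filtered, stood at 121 and 341 CPM and had 1.48, 1.55, 4.81, 1.59 and 1.88. Lrmda (73.2 and 475 CPM) was unlike these, with 2.66, 2.54 and 1.44 in the first 3 sets and -0.03 and 0.39 in endothelial-marked and Kupffer-marked barcodes. What these genes share was not tested.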
